A study of Rattus norvegicus with 3 samples.

Results

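The enzymes that clear foreign chemicals and their own reactive products were followed across the 3 major salivary glands of the rat. Members were chosen by the gene name that the array files give each probe: cytochromes P450 (Cyp followed by a number), glutathione S-transferases of the alpha, mu, pi, theta, omega and kappa classes (Gsta, Gstm, Gstp, Gstt, Gsto, Gstk), UDP-glucuronosyltransferases (Ugt1a, Ugt2a, Ugt2b), sulfotransferases (Sult), aldehyde dehydrogenases (Aldh) and flavin-containing monooxygenases (Fmo). These names took in 119 of 35727 gene names, on 142 probes and 160 spots. They comprised 64 Cyp, 15 Gst, 10 Ugt, 11 Sult, 13 Aldh and 6 Fmo names. A gene is called below by the name in the files, with the current RefSeq symbol in brackets where the 2 differ.

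Each of the parotid, submandibular and sublingual glands was represented by 1 Agilent array, hybridised with Cy3-labelled RNA from untreated male Wistar rats aged 10 weeks. No treatment, allele or genotype separates the groups, whose labels differ by gland only. With 1 array per gland, gland cannot be told apart from animal or labelling. The series' design text names 3 rats, but whether an array holds RNA of 1 rat or of several is not stated. There are no replicates, so every value describes 1 array, no test was made, and precision is limited by the number of arrays. Levels are log2 signals minus the 75th percentile of the same array, and differences are between arrays for 1 probe; levels of different probes are not compared. A probe that the scanner software did not flag as well above background on an array is called dim there. Where 1 side was dim, the fold is a lower bound ("at least"), taken against the lowest level well above background on that array or, if higher, the dim probe's own level.

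Drug-metabolizing enzymes are usually grouped in phases. P450s and flavin monooxygenases add or expose an oxygen-containing group, aldehyde dehydrogenases oxidize aldehydes to acids, and the transferases then attach glutathione, glucuronic acid or sulfate to make the product soluble. Many family members also have substrates made by the body, such as steroids, fatty acids and retinoids, and the liver is the organ best known for them.

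The labels were set against defining markers before the members were read. Compared with the parotid array, both other arrays had all 7 probed serous acinar markers lower by 4-fold or more and all 4 probed mucous acinar markers higher by 4-fold or more. The summed linear level of the serous markers, in multiples of the array's 75th percentile, was 8457 (parotid), 171 (submandibular-labelled) and 95.6 (sublingual), and that of the mucous markers 0.611, 1481 and 1464. The summed level of 10 granular convoluted duct products, which define the rat submandibular gland, was 552, 633 and 484, and none of them was 2-fold higher on the submandibular array than on the parotid array. That array is therefore called submandibular-labelled throughout. All 4 myoepithelial markers were higher on both arrays than in the parotid, and all 6 fibroblast markers were lower (199, 68.7 and 79.7). Summed immune markers were 62.0, 21.8 and 18.2. Summed hepatocyte markers were 2.43, 17.6 and 13.7, most of it from Serpina1, at 0.99, 4.11 and 3.74. Of the other hepatocyte markers, Apoa1 and Ttr were dim on every array, Alb was measured in the parotid only, Fgb only outside it, and Apob in the parotid and sublingual glands. The part of cell composition in the differences below was not tested, and in whole-gland RNA fewer cells of a type and less RNA per cell cannot be told apart.

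The families differed in how many of their members could be measured. Over all gene names, 54.5% (parotid), 52.3% (submandibular-labelled) and 54.8% (sublingual) had a probe well above background. Among the members these counts were 57, 55 and 60 of 119. The number well above background on all 3 arrays was 50 (42.0%, beside 48.0% of all gene names), and 54 were on none (45.4%, beside 40.1%). Gst and Aldh genes were mostly measured: 13, 13 and 14 of 15 Gst names and 11 of 13 Aldh names on each array were well above background. Of 64 Cyp names, 22, 19 and 22 were, and of 10 Ugt names 3 on each array. Sult names numbered 4, 6 and 6 of 11, and Fmo names 4, 3 and 4 of 6.

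**Figure D1:**
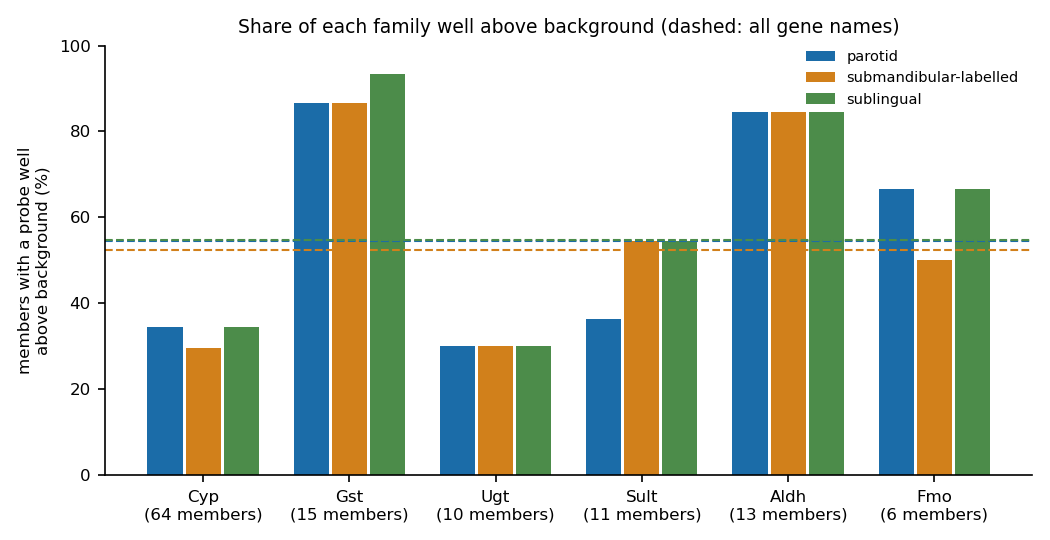
Share of the members of each family with at least 1 probe well above background (y axis, percent; bars, 1 per array; dashed lines, the same share over all 35727 gene names). Gst and Aldh bars stand above the dashed lines on every array, and Cyp and Ugt bars below them.

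The dim members included many of the best-known liver enzymes. Of 35 names in Cyp families 1 to 3, the families of drug and chemical oxidation, 22 were dim on every array, a larger share than the 40.1% of all gene names. They included Cyp1a1 and Cyp1b1, which oxidize polycyclic aromatic hydrocarbons, Cyp2e1, which oxidizes ethanol, and all 5 Cyp3a names. Cyp1a1 and Cyp2e1 were printed on 10 spots each, and no mean over those spots was well above background. Of 7 names in steroid hormone synthesis 5 were dim throughout (Cyp11a1, Cyp11b1, Cyp11b2, Cyp19a1 and Cyp21a1), as were Cyp7a1 and Cyp8b1 of bile acid synthesis. Among the conjugating enzymes Ugt1a1, the bilirubin-conjugating enzyme, 5 of 6 Ugt2 names, Sult2a1 and Sult2a2 were dim on every array. A dim probe sets no level: it says that the signal was not separated from background here.

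Between the submandibular-labelled and parotid arrays, 62 members could be compared. By the 4-fold rule 3 of these were higher outside the parotid and 3 lower, against 2.55% and 3.12% of all compared gene names. Between the sublingual and parotid arrays, 4 of 64 members were higher and 4 lower by that rule, against 2.65% and 2.76%. By the 2-fold rule 16 members were higher and 9 lower on the submandibular-labelled array, against 9.72% and 13.5% of gene names, and 19 were higher and 11 lower in the sublingual gland, against 11.2% and 12.9%. With another background correction (normexp, offset 50, which compresses low signals), tried with this rule after the data were seen, the 2-fold counts were 12 and 4, and 10 and 5, against 6.12%, 5.24%, 7.41% and 4.77% of gene names. Without normexp, the higher counts as shares of the compared members were 25.8% and 29.7%, and the lower counts 14.5% and 17.2%. Both comparisons use the same parotid array, so a departure of that array enters both.

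The submandibular-labelled and sublingual arrays differed little, for these enzymes as for gene names as a whole. Because granular duct products did not mark the submandibular-labelled array, this likeness cannot be read as one between 2 established glands, and whether the arrays hold separate tissues was not tested. No member of 58 compared was 2-fold apart in either direction, where 1.7% of all gene names were at least 2-fold higher and 0.587% lower in the sublingual gland. At 4-fold the shares of all names were 0.14% and 0.0802%, again with no member. Among the 55 members well above background on both arrays, the log2 difference, sublingual minus submandibular-labelled, ran from -0.62 (Aldh1a1) to 0.78 (Gsto2), with a median of -0.17 beside 0.01 over all gene names. Repeated spots of a probe on the same array varied with a median SD (log2) of 0.09 in the parotid and 0.08 on both other arrays. That error covers neither animals nor labelling.

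Set against both other arrays, members at least 4-fold apart were seen in the parotid only, where most such gene names of any kind also lay. Of 62 compared members, 3 (Aldh1a4, Cyp17a1 and Cyp4f6) were higher in the parotid than on both other arrays, beside 2.3% of all gene names. Another 3, Cyp2a3a (Cyp2a3), Cyp2f2 (Cyp2f4) and Sult1d1, were lower, beside 2.21%. For the submandibular-labelled array the shares of all names were 0.0571% and 0.0467%, with 0 of 56 members in either direction. For the sublingual array they were 0.0717% and 0.0154%, with 0 of 58. Shares this small leave little room for a member, so these counts of 0 do not set the enzymes apart.

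**Figure D2:**
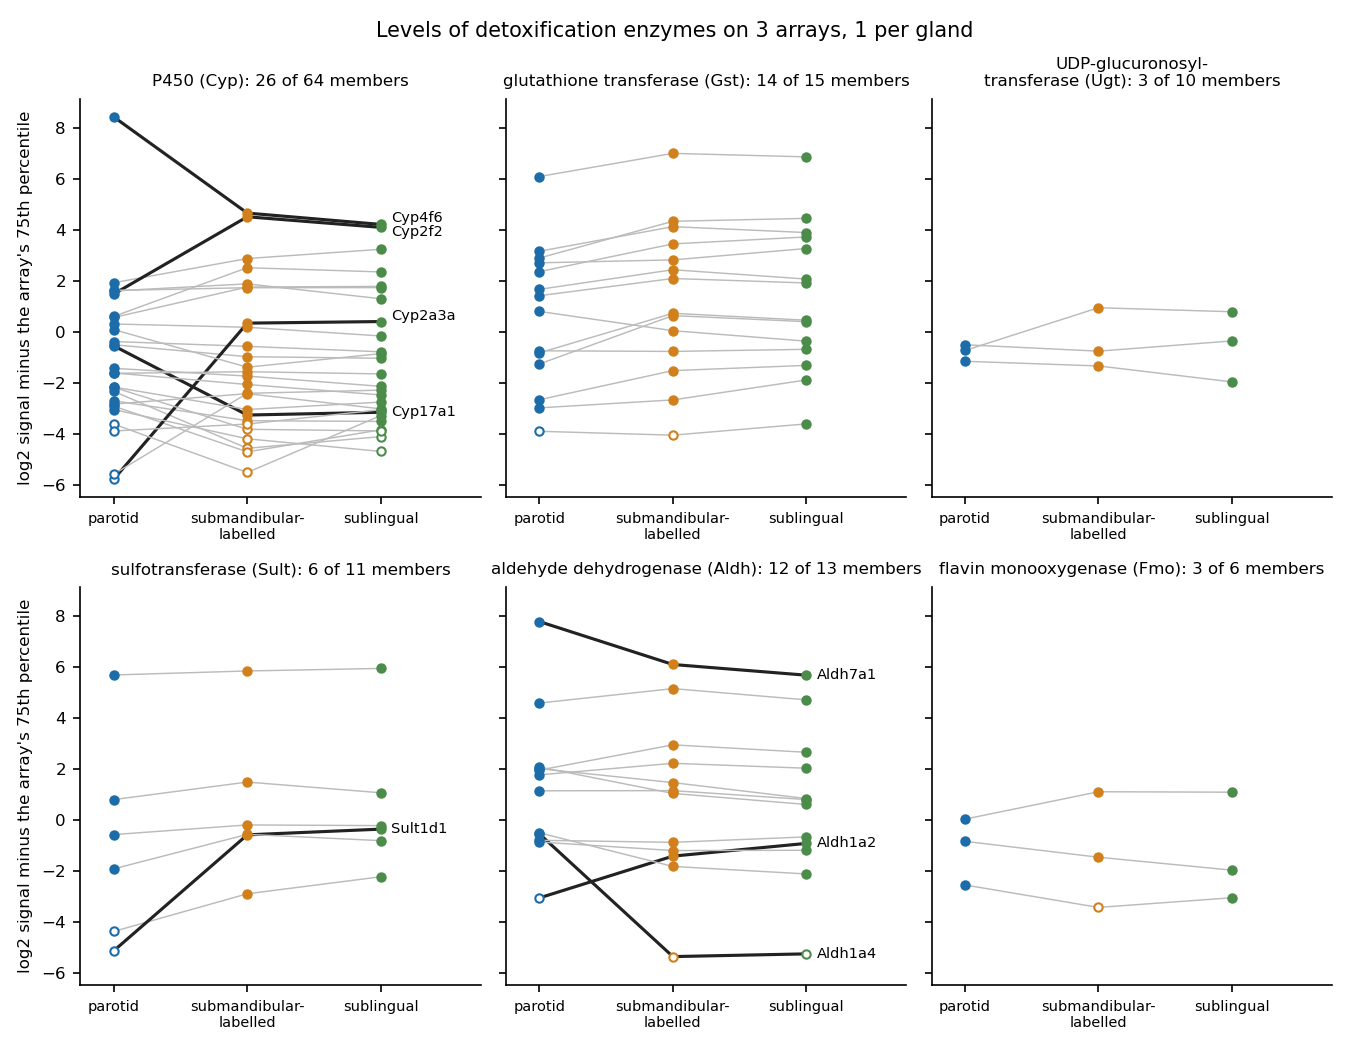
Log2 level (signal minus the array's 75th percentile) of each member on the 3 arrays, by family, for members well above background on at least 1 array (1 member that is not reported is left out). Filled points are well above background, open points are dim, lines join 1 probe, and black lines mark members at least 4-fold apart from the parotid (Cyp4f6 falls from 8.42 to 4.22, Cyp2f2 goes from 1.49 to 4.10 in the sublingual gland); heights of different members are not comparable.

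Among P450s measured on every array, the one furthest above the other arrays in the parotid was Cyp4f6, of a subfamily that hydroxylates leukotrienes and other fatty acids. Its level was 8.42 (parotid), 4.66 (submandibular-labelled) and 4.22 (sublingual). It was thus 13.6-fold and 18.5-fold higher in the parotid. The probe lies at chr7:13609104-13609163 in rn4, the build of the files' coordinates. Its nearest neighbour among the members did the reverse: Cyp4f2 (Cyp4f1), singled out after its values were seen, was dim in the parotid and had levels of -2.40 and -2.27 on the other arrays, at least 2.05-fold and 2.24-fold higher. Cyp4f5, in the same gene cluster, had levels of -1.60, -2.05 and -2.46, and Cyp4f4 was dim on every array. The members of this cluster therefore did not share 1 direction, although near-identical copies may share signal on a probe.

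Cyp17a1, which makes androgen precursors in gonads, had levels of -0.54 (parotid), -3.25 (submandibular-labelled) and -3.14 (sublingual). It was 6.54-fold and 6.06-fold higher in the parotid (probe at chr1:251965532-251965591, rn4). The low side lay close to background, and with normexp the log2 differences were -1.23 and -1.33 in place of -2.71 and -2.60. The enzymes of neighbouring steps, Cyp11a1, Cyp19a1 and Cyp21a1, were dim throughout.

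Cyp2a3a (Cyp2a3) and Cyp2f2 (Cyp2f4), P450s best known from the nasal lining and the airways, were both far higher outside the parotid. Cyp2a3a was dim in the parotid and stood at 0.35 (submandibular-labelled) and 0.41 (sublingual), at least 13.8-fold and 14.4-fold higher. Cyp2f2 stood at 1.49, 4.52 and 4.10, 8.13-fold and 6.10-fold above the parotid. With normexp the log2 differences of Cyp2a3a were 2.30 and 2.39 (3.79 and 3.85 otherwise) and those of Cyp2f2 2.93 and 2.55. The probes lie at chr1:81948552-81950011 and chr1:82204527-82204586 in rn4. In the RefSeq gene order (GRCr8) the 2 genes lie in 1 row of Cyp2 genes, with Cyp2a1 and Cyp2a2 between them. Cyp2a1 was dim on every array, and Cyp2a2 was measured only in the parotid, at -2.90. Cyp2t1, on the other side of Cyp2f2, had levels of 1.61, 1.89 and 1.31. Of these 5 genes, only Cyp2a3a and Cyp2f2 were 4-fold apart from the parotid.

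**Figure D3:**
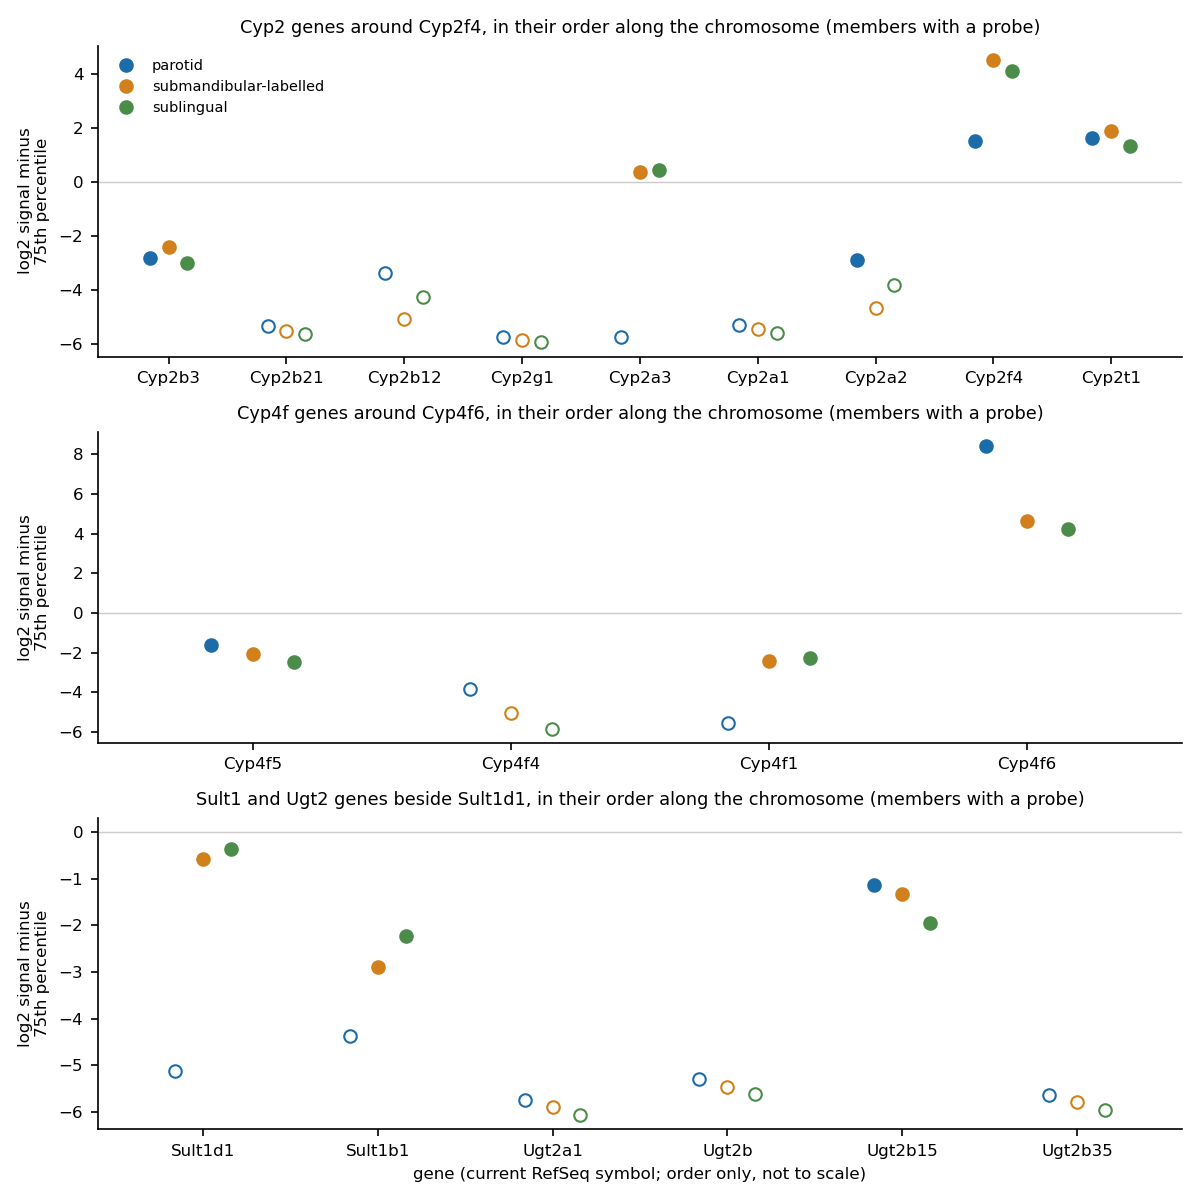
Log2 level on each array (points; filled, well above background; open, dim) for the members of 3 gene clusters, placed in their RefSeq order along the chromosome and not to scale. Heights of different genes are not comparable. Within a gene, Cyp2a3 and Cyp2f4 (top) are lowest on the parotid array, Cyp4f6 (middle) is highest there, and Sult1d1 and Sult1b1 (bottom) are dim there only.

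Because these 4 P450 genes differ in which gland holds the higher level, the 250 bases before each gene's start are shown, from the RefSeq promoter table (GRCr8), 5′ to 3′ on the gene's strand. Capitals mark the letters GCGTG, the core that the dioxin receptor complex is known to bind, read on either strand; the core TGACNNNGC of antioxidant response elements was searched in the same way.
Cyp4f6, chr7:12708379-12708628, minus strand: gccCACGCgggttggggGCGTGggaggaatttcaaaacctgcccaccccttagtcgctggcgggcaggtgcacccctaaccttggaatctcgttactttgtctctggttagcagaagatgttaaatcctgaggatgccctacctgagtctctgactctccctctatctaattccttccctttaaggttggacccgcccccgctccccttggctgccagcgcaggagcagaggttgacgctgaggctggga
Cyp4f1, chr7:12672554-12672803, minus strand: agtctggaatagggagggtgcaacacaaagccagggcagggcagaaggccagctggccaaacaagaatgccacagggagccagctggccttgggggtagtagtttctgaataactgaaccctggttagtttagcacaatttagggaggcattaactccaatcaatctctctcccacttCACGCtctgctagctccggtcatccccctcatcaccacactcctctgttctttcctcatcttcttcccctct
Cyp2a3, chr1:91299334-91299583, plus strand: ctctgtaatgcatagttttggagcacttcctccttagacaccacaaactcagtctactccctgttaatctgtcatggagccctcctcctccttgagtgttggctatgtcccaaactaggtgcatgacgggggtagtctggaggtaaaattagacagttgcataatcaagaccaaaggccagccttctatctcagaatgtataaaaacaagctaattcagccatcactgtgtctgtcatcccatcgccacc
Cyp2f4, chr1:91543518-91543767, plus strand: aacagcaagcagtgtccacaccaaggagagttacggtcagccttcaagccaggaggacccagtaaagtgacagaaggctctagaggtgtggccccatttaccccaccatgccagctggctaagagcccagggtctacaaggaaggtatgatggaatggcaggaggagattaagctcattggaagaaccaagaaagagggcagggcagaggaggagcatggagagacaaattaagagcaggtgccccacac
GCGTG was found in the windows of Cyp4f6 and Cyp4f1 and not in those of Cyp2a3 and Cyp2f4. TGACNNNGC was in none of the 4. Over all 33469 promoters of the table, 25.9% hold GCGTG and 10.1% hold TGACNNNGC; over the 92 members with a promoter there, the counts are 25 (27.2%) and 7 (7.61%). A match describes letters only and says nothing of binding.

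Further P450s differed by 2-fold or more. Cyp2d10 (Cyp2d5) had levels of 0.62, 2.52 and 2.36 in the parotid, submandibular-labelled and sublingual arrays, 3.75-fold and 3.34-fold above the parotid. Cyp51, the lanosterol demethylase of cholesterol synthesis, had levels of 0.57, 1.77 and 1.79. Cyp20a1, whose substrate is not settled, had levels of 1.93, 2.88 and 3.24. These 3 were higher outside the parotid. Lower outside it was Cyp2j9 (Cyp2j3), with levels of 0.10, -1.37 and -0.84, 2.77-fold and 1.92-fold higher in the parotid. Its second probe was dim on every array. Also lower were 2 P450s measured only in the parotid. Cyp1a2 stood there at -2.32 (at least 2.39-fold and 2.67-fold higher, with a second probe dim on every array). Cyp2d13 (Cyp2d3) stood there at -2.16 (at least 2.66-fold and 2.97-fold). Of the 17 P450s well above background on both the submandibular-labelled and parotid arrays, 8 were above 0 in log2 difference, with a median of -0.13. For the sublingual gland it was 5 of 18, with a median of -0.43. Over all gene names the medians were 0.04 and 0.03. By the 2-fold rule 5 of 24 compared P450s were higher and 5 lower on the submandibular-labelled array, beside 9.72% and 13.5% of gene names. In the sublingual gland 6 of 26 were higher and 4 lower, beside 11.2% and 12.9%. With normexp 4 were higher and 2 lower, and 5 and 2, beside 6.12%, 5.24%, 7.41% and 4.77%. The 2 lower were Cyp4f6 and Cyp17a1 each time, so Cyp2j9, Cyp1a2 and Cyp2d13 were then not 2-fold lower.

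Glutathione transferases were mostly higher outside the parotid. Of 13 measured on both arrays, 11 were higher on the submandibular-labelled array than in the parotid and 12 in the sublingual gland, with median log2 differences of 0.91 and 0.77. Over all gene names 51.9% and 51.5% were above 0. No Gst was 4-fold apart. By the 2-fold rule 5 and 6 were higher, beside 9.72% and 11.2% of all gene names, and 0 and 1 lower; with normexp the sublingual counts were 3 higher and 0 lower. Gstm1, a mu-class enzyme, had levels of -1.25, 0.65 and 0.41 in the parotid, submandibular-labelled and sublingual arrays, 3.71-fold and 3.15-fold above the parotid. Gsto1, an omega-class enzyme that reduces dehydroascorbate, had levels of 2.90, 4.34 and 4.45. Gstt1, of the theta class, had levels of -0.81, 0.74 and 0.47. In all 3, both other arrays lay above the parotid and near each other. The alpha-class names gave 2.37, 3.45 and 3.73 for Gsta3 (Gsta1), and -2.65, -1.51 and -1.30 for Gsta2. Gsto2 had levels of -2.97, -2.65 and -1.87, and was 2.13-fold above the parotid in the sublingual gland only.

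By the brightest probe, the Gst names below the parotid in either comparison were of the mu class. Gstm3 (Gstm7) had levels of 0.81, 0.06 and -0.35, 1.69-fold and 2.24-fold higher in the parotid, and Gstm5 had levels of -0.73, -0.76 and -0.67. A second Gstm5 probe was dim in the parotid and stood at -3.16 and -3.21, and another was dim on every array. Gstt2, of the theta class, had log2 differences from the parotid of 0.12 and 0.56. Its second probe, well above background on every array, was at 0.07 and -0.04. Gstm1, Gstm2, Gstm3 and Gstm5 stand in 1 row in RefSeq order, so the row did not share 1 direction. The pi-class names Gstp1 and Gstp2 both match the RefSeq gene Gstp1, the second by an older symbol only. Both names are counted above. Gstp1 had levels of 3.17, 4.13 and 3.90, and Gstp2 of 6.09, 7.0 and 6.86. Their log2 differences from the parotid were 0.96 and 0.73 for the first and 0.91 and 0.77 for the second. These are near-equal, but whether the 2 names are 1 gene is uncertain. Near-identical copies within the alpha, mu and pi classes may share signal, and the share of each gene is then uncertain.

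**Figure D4:**
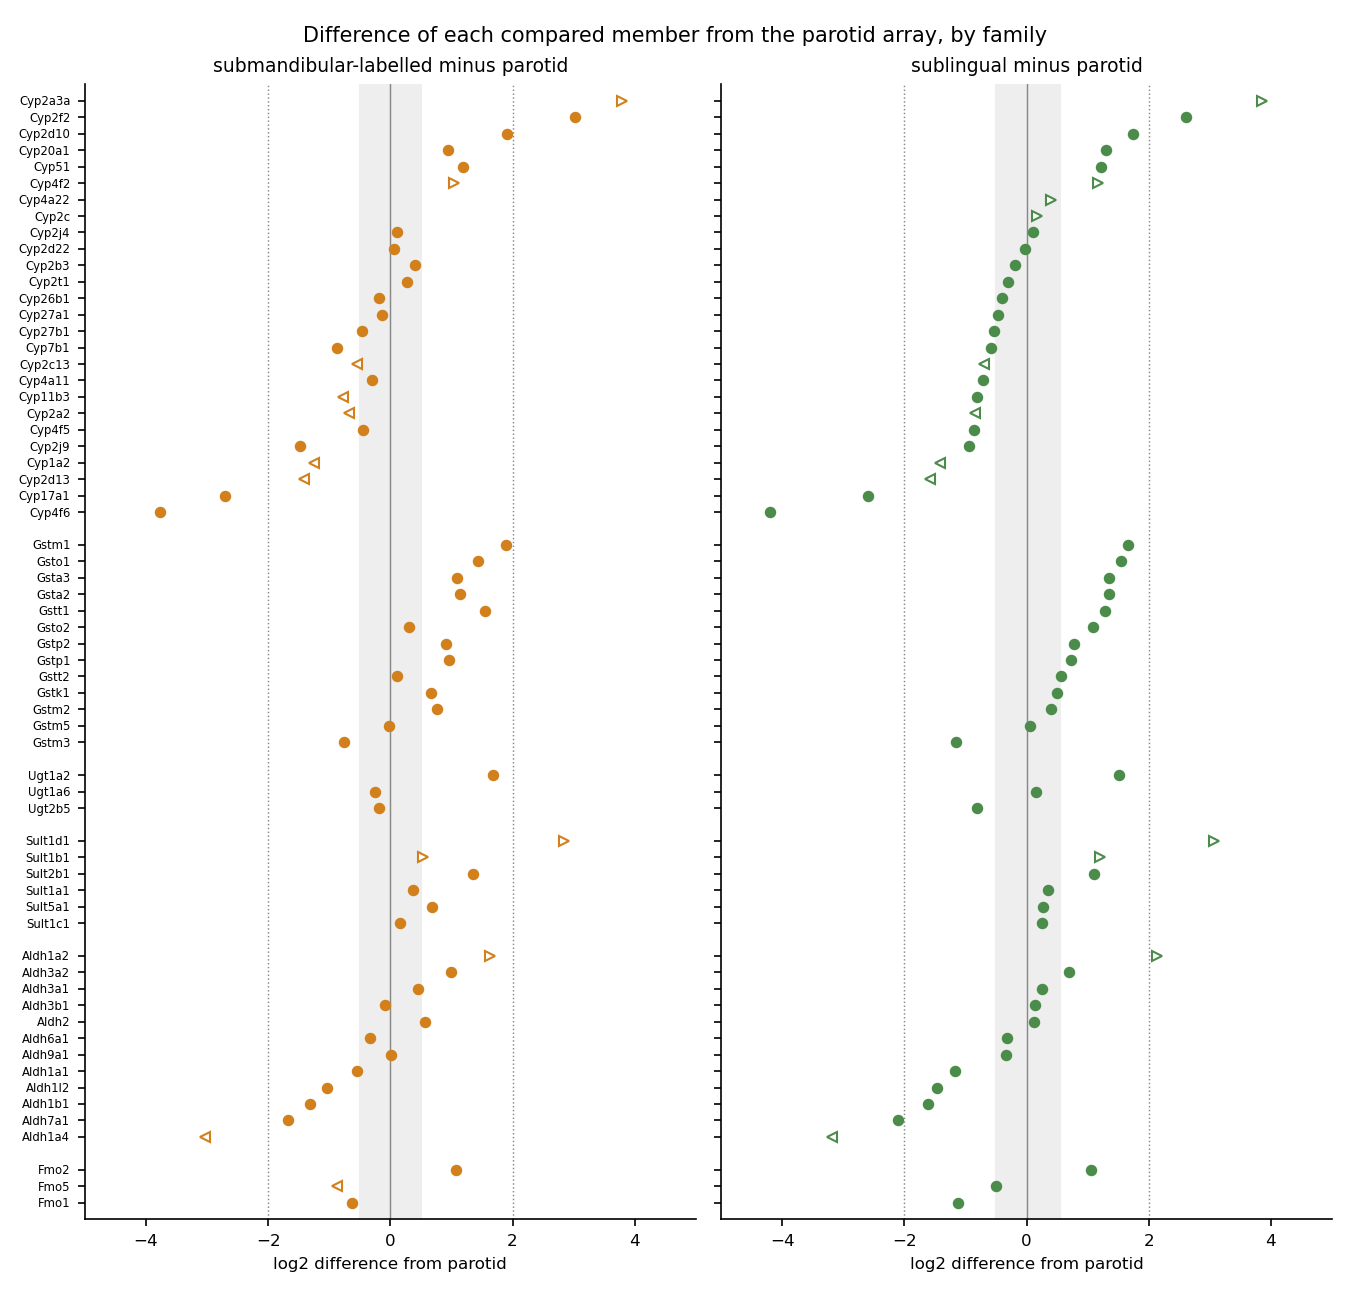
Log2 difference from the parotid array of the members compared, less 1 that is not reported, by family (rows; filled circles, both sides well above background; open triangles, lower bounds; grey band, lower to upper quartile of all gene names; dotted lines, 4-fold). Gst circles lie mostly right of the band, with Gstm3 on the left, and the outermost symbols are those of Cyp2a3a (3.85, a lower bound) and Cyp4f6 (-4.21) in the sublingual panel.

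The Gstp1 promoter is shown because the gene is a known target of the antioxidant response. Capitals mark TGACNNNGC and GCGTG on either strand.
Gstp1, chr1:210769706-210769955, minus strand: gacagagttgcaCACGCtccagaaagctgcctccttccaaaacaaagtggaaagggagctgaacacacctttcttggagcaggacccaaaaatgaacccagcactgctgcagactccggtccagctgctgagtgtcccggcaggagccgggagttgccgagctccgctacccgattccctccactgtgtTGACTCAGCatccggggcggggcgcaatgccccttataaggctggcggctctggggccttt
Gstm1, chr2:198343384-198343633, minus strand: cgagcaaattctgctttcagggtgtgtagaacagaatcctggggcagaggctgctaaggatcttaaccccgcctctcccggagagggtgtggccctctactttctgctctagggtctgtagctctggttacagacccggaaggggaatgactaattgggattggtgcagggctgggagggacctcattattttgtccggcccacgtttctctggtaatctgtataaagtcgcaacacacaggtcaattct
The Gstp1 window held 1 copy of each core and the Gstm1 window, the member of the family furthest from the parotid, held neither. TGACNNNGC was in 3 of 12 Gst promoters (Gstp1, Gstm5 and Gstm7), or 25%, beside 10.1% of all promoters.

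Sulfotransferases with a measurable level were higher outside the parotid or close to it. Sult1d1, which sulfonates catecholamines and other phenols, was dim in the parotid and stood at -0.58 (submandibular-labelled) and -0.36 (sublingual), at least 7.21-fold and 8.42-fold higher (probe at chr14:22001402-22001461, rn4). Its neighbour Sult1b1 was dim in the parotid as well and stood at -2.89 and -2.23, while its second probe was dim on every array. Sult2b1, a cholesterol sulfotransferase of epithelia, had levels of -1.92, -0.57 and -0.81, 2.55-fold and 2.15-fold above the parotid. Sult1a1, the phenol sulfotransferase, had levels of -0.57, -0.20 and -0.22, within 1.30-fold of the parotid. All 4 Sult names measured on every array were above 0 in both comparisons, beside 51.9% and 51.5% of all gene names. Their medians were 0.53 and 0.31. With quantile normalization Sult1c1 (Sult1c3) was at -0.04 in the sublingual comparison. With normexp the log2 differences of Sult1d1 were 1.37 and 1.56 in place of 2.85 and 3.07. Those of Sult2b1 were 0.60 and 0.44 in place of 1.35 and 1.10, so Sult2b1 was then less than 2-fold above the parotid. The 250 bases before the start of Sult1d1 hold neither core.
Sult1d1, chr14:20720829-20721078, plus strand: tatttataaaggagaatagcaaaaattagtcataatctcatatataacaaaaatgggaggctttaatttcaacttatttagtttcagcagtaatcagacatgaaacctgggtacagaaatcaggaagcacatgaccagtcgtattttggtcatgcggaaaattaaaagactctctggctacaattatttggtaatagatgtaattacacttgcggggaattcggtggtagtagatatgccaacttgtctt

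Only 3 glucuronosyltransferase names were measured. Ugt1a2 had levels of -0.72, 0.95 and 0.80 in the parotid, submandibular-labelled and sublingual arrays, 3.19-fold and 2.86-fold above the parotid. Its second probe had levels of -2.07, -1.37 and -1.54, the same direction at a smaller size. Ugt1a6 had levels of -0.49, -0.75 and -0.35, and Ugt2b5 (Ugt2b15) of -1.14, -1.33 and -1.95. Both stayed within 2-fold of the parotid, and the second probe of Ugt2b5 was dim on every array. Ugt2b5 matched Ugt2b15 by an older symbol only, and Ugt2b3, which matched the same gene by accession, was dim on every array. Ugt1a genes share their last exons, so a probe there cannot tell them apart.

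Aldehyde dehydrogenases held members on both sides. Aldh1a4, which no current RefSeq gene matched, was measured only in the parotid, at -0.55, at least 8.15-fold and 9.10-fold above the other arrays (probe at chr1:223822773-223822832, rn4). Aldh1a1, which makes retinoic acid from retinaldehyde, had levels of 2.01, 1.46 and 0.84, 1.46-fold and 2.25-fold higher in the parotid. Aldh1a2, with the same reaction, was the reverse: it was dim in the parotid and stood at -1.42 and -0.92, at least 3.11-fold and 4.39-fold higher. With normexp the log2 differences of Aldh1a4 were -1.60 and -1.68 in place of -3.03 and -3.19, and that of Aldh1a2 in the sublingual gland 0.69 in place of 2.13.

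Among the other aldehyde dehydrogenases, Aldh7a1, which oxidizes an aldehyde of lysine breakdown, had levels of 7.77, 6.09 and 5.67, 3.20-fold and 4.28-fold higher in the parotid. Its second probe had levels of 3.75, 2.09 and 1.47, so both probes showed the same order. Aldh1b1 and Aldh1l2, mitochondrial enzymes, were also higher in the parotid, with levels of -0.51, -1.82 and -2.12 for the first and 2.07, 1.04 and 0.60 for the second. Aldh2, the main mitochondrial enzyme of acetaldehyde oxidation, had levels of 4.58, 5.14 and 4.70, and its small sublingual difference of 0.12 turned to -0.25 with quantile normalization. Aldh3a1, known from the cornea, had levels of 1.76, 2.22 and 2.02. Of 10 Aldh names measured on both arrays, 4 were above 0 in each comparison with the parotid, with medians of -0.21 and -0.33. Over all gene names 51.9% and 51.5% were above 0, with medians of 0.04 and 0.03. By the 2-fold rule 1 of 12 compared Aldh names was higher in each comparison, beside 9.72% and 11.2% of gene names. The lower counts were 4 and 5, beside 13.5% and 12.9%. With normexp 0 were higher and 2 and 3 lower, beside 5.24% and 4.77% of gene names lower.

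Of the flavin monooxygenases, Fmo2 was higher outside the parotid and Fmo1 lower. Fmo2, known from the lung, had levels of 0.03, 1.10 and 1.09, with log2 differences from the parotid of 1.07 and 1.06. Fmo1 had levels of -0.84, -1.46 and -1.97, 1.54-fold and 2.19-fold higher in the parotid. With normexp no Fmo name was 2-fold apart in the sublingual comparison, where 7.41% of gene names were higher and 4.77% lower. Fmo5 stood at -2.55 in the parotid and -3.05 in the sublingual gland and was dim on the submandibular-labelled array. Fmo1 and Fmo2 lie side by side in RefSeq order, and again the neighbours differed in direction.

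Of 75 other genes of these pathways, 69 had a probe of their own. Of 56 compared between the submandibular-labelled and parotid arrays, 1 was higher and 1 lower by the 4-fold rule, and 15 and 4 by the 2-fold rule, beside 2.55% and 3.12%, and 9.72% and 13.5%, of all gene names. In the sublingual gland, of 53 compared, 2 were higher and 1 lower at 4-fold, and 16 and 4 at 2-fold, beside 2.65% and 2.76%, and 11.2% and 12.9%. The widest gap was that of Adh1, the alcohol dehydrogenase that also oxidizes retinol, with levels of 4.36 in the parotid and -2.06 and -2.17 on the other arrays. It was 86.1-fold and 92.9-fold higher in the parotid. Ces3, a carboxylesterase, went the other way, with levels of -0.15, 2.91 and 2.44, and Ces1 was dim in the parotid and stood at -1.64 and -2.26.

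The enzymes that feed glucuronidation differed in direction. Ugp2, which makes UDP-glucose, had levels of 3.01, 4.86 and 5.47, while Ugdh, which turns it into UDP-glucuronic acid, had levels of 0.96, -0.33 and -0.82. Ugp2 was thus 3.61-fold and 5.49-fold above the parotid, and Ugdh 2.44-fold and 3.44-fold below it. The microsomal glutathione transferase Mgst1 had levels of -0.02, 1.57 and 1.77, the cytochrome b5 form Cyb5b of 2.04, 3.71 and 3.93, and the glutathione peroxidase Gpx1 of 6.17, 7.32 and 7.84. These 3 were higher outside the parotid. Of 8 probed regulators, 2, 3 and 3 were well above background on the parotid, submandibular-labelled and sublingual arrays. The regulators were named after their values were seen. Ahr and Arnt, the partners of the dioxin receptor complex, were dim on every array. So were Nr1i2 and Nr1i3, the receptors that induce many liver P450s, and Ppara. Nfe2l2 and Keap1 were well above background on every array. On the submandibular-labelled and sublingual arrays Nfe2l2 was 1.72-fold and 2.17-fold above the parotid, and Keap1 2.05-fold and 1.72-fold. Gaps of this size lie within the spread between 2 probes of 1 gene name, given at the end. Rxra was dim in the parotid only.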

How the data were processed

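RNA of 3 glands was measured on 1 array each. The intensity of each spot was deposited as background-subtracted signal from Agilent Feature Extraction, per the file headers (protocol GE1-v5_10_Apr08, coordinates in rn4); no signal was saturated. The remaining deposited columns used are other values, yes-or-no flags set by that software. In the authors' deposited table each value is a ratio, found here to be the processed signal over 190, 236 or 250 by array; the sources used here do not say how it was made.

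Log2 of the processed signal minus the array's 75th percentile over probes was computed here. Control spots and outlier-flagged spots (68, 79 and 73) were left out, spots of a probe averaged, and a gene name represented by its brightest probe (19 members have several). Counts use 4-fold and 2-fold thresholds; the lowest level well above background was -3.43, -3.58 and -3.74. Of 119 members 116 matched RefSeq (98 by accession, 16 by symbol, 2 by older symbol), and 28 carry another symbol now. RefSeq coordinates are GRCr8 and were not mixed with rn4.

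Named were, per family, the widest folds or bounds of 2 or more, up to 10 members (the top 3 where fewer than 3 reached 2-fold), then 14 well-known members with a probe (41 in all), and 8 other pathway genes. The members, lists and thresholds were chosen with earlier results of these data known. Alternatives were normexp (limma 3.58.1, R 4.3.3, offset 50), quantile normalization, median centring, the authors' table, other filters, probe rules, flags and thresholds. The counting was tested on simulated data. Python 3.11.15, numpy 2.4.6, pandas 2.3.3 and matplotlib 3.10.9 were used. The values of 1 member are not reported here.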

Additional observations from a re-analysis of the deposited data

How the results depend on the processing

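The 4-fold counts kept within 1.5 times under quantile normalization, median centring, the authors' table, other probe rules, kept outlier flags and RefSeq-matched names only. With normexp, 1 of 62 members (1.61%) was lower on the submandibular-labelled array than in the parotid, beside 1.14% of all gene names. The sublingual counts were then 2 higher and 2 lower of 63 (3.17% each), beside 1.52% and 1.09%. The parotid stood above both other arrays for 1 member. With only features well above background on all arrays, 1 of 50 members (2%) was higher in each comparison with the parotid. Of all gene names 2.15% and 2.23% were, so the higher share no longer stood above the background. The lower counts with this filter were 2 and 3 of 50 (4% and 6%), beside 2.29% and 1.96% of all gene names. With the same filter, 1 member lay lower in the parotid than on both others. With no filter and no bound, 5 of 119 members (4.2%) were lower on the submandibular-labelled array than in the parotid, beside 4.37% of all gene names. In that setting 1 of 119 (0.84%) was higher in the sublingual than on the submandibular-labelled array, beside 0.389%. At 2-fold the counts were 16 higher and 9 lower, and 19 and 11, beside 9.72%, 13.5%, 11.2% and 12.9% of all gene names. At 10-fold each count against the parotid was 1 (of 62 and of 64 members). The shares of all gene names were then 0.769%, 0.924%, 0.774% and 0.913%. With normexp and 2-fold together, an alternative added after the data were seen, the counts were 12 higher and 4 lower, and 10 and 5. Beside them stood 6.12%, 5.24%, 7.41% and 4.77% of all gene names. Of 14 named differences of at least 4-fold, all 14 kept their direction and 7 stayed at least 4-fold with normexp. Smaller differences that changed sign included those of Cyp17a1 between the other 2 arrays (normexp), Aldh2 and Sult1c1 in the sublingual comparison (quantile), and Gsta2 and Ugt2b5 (median of the probes). Median centring and quantile normalization gave medians over all gene names from -0.03 to 0.04.

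With 1 array per gland, animals, labelling and gland cannot be told apart. Over 1954 gene names with 2 measured probes, the probes' log2 differences lay a median of 0.25 and 0.29 apart in the comparisons with the parotid and 0.19 in the other, with 95th percentiles of 1.30, 1.32 and 0.75, so for single probes 2-fold differences from the parotid lie within that spread. Levels near background are the least certain. No paired analysis was possible because each group has 1 sample.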
